A study of Danio rerio with 16 samples.

Results

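Loss of the glucocorticoid receptor (GR) was examined in zebrafish larvae raised in cortisol, by RNA-seq of pooled whole larvae. The 8 libraries compared here, of 16 in the series, are all those from cortisol-treated larvae, chosen by their genotype and treatment labels alone: 4 pools that failed the visual background adaptation screen (VBA-) and 4 pools of siblings that passed it (VBA+). All larvae came from crosses between carriers of GR369-, a CRISPR-made frameshift deletion in nr3c1 on an AB background. VBA- larvae are homozygous for GR369-, whereas a VBA+ pool mixes wild-type with heterozygous siblings, so that many of the controls carry 1 mutant copy. Both groups developed in medium with 1 uM cortisol from a few hours after fertilization and were collected at day 5. The remaining 8 libraries are VBA+ and VBA- pools raised in DMSO vehicle. Each pool held 8 larvae, and all pools of 1 condition shared a dish and were collected one condition after another, so that genotype, dish and order of collection cannot be told apart and p-values measure only the spread between pools of a dish.

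The GR is a nuclear receptor held in the cytoplasm by a chaperone complex built on Hsp90, and it enters the nucleus when cortisol binds. There it binds glucocorticoid response elements and turns on genes for glucose supply, muscle protein turnover and feedback on its own signal, and it also restrains inflammation by tethering to other transcription factors. Cortisol binds the related mineralocorticoid receptor too, and in zebrafish larvae without a working GR the feedback that limits cortisol production is lost.

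Levels are given as the log2 of a gene's normalized count plus 0.1, so that 1 unit is a doubling, and differences are VBA- minus VBA+ on that scale. The normalization gave every library the same set of values, 310 zeros included, and sequencing depth is therefore unknown. The most abundant genes share a few common steps at the top of this scale, so that equal values recur among them. Of 22994 genes, 21686 were tested, and 13772 of them had a mean normalized count of at least 75, the limit for counting genes below. Calls needed that mean, a standard error (SE) under 1, a log2 difference of at least 0.5 in size and a limma p of 0.05 or less after adjustment over all tested genes. The marker lists of nerve, eye, pancreas, liver, muscle, skin, blood and pigment cells were all detected in every pool, with 1 photoreceptor gene at 0 in at least 1 library. No pair of the 8 libraries was identical.

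The mutated gene itself was checked first. NR3C1, which encodes the GR, stood at 9.49, 9.44, 9.59 and 9.39 in VBA+ pools 1 to 4 and at 9.21, 8.69, 8.46 and 7.83 in VBA- pools 1 to 4. All VBA- pools lay below all VBA+ pools, pool 1 narrowly and pool 4 by the widest margin. The difference was -0.93 ± 0.25 (SE, n = 4 against 4), and the adjusted p 0.514 in limma. FKBP5, a co-chaperone of the GR complex and a textbook GR target, stood at 8.61, 9.47, 9.25 and 9.39 in the VBA+ pools and at 8.95, 6.94, 6.66 and 3.34 in the VBA- pools. VBA- pool 1 was inside the VBA+ range, pools 2 and 3 were below it, and pool 4 was lower again by a wide step. The FKBP5 difference was -2.71 ± 0.96, and the adjusted p 0.591 in limma. Thus VBA- pool 1 went partly against its label, in FKBP5, and the main results that turn on this pool are given with and without it. Without that pool the differences were -1.15 for NR3C1 and -3.53 for FKBP5, and FKBP5 then no longer overlapped between groups. Without VBA- pool 4, the lowest in both genes, they were -0.69 and -1.66. In vehicle, FKBP5 stood at 8.71, 6.002, 5.98 and 5.25 in VBA- pools 1 to 4. There too VBA- pool 1 was inside the VBA+ range, 8.42 to 8.99, and the other VBA- pools were below it. For NR3C1 in vehicle it was VBA- pool 3, at 9.33, that lay inside the VBA+ range of 9.18 to 9.52. The cause of these positions was not tested.

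Across all genes, no gene passed the call limits between VBA- and VBA+ larvae in cortisol (0% of 21686 in limma, smallest adjusted p 0.11), while 1701 genes had an unadjusted p under 0.05, 1036 of them with a higher level in VBA- (4.78%) and 665 with a lower one (3.07%). In 364 genes all 4 VBA- pools lay above all 4 VBA+ pools (2.64% of 13772), and in 288 genes all lay below (2.09%), together 4.73%. The median difference over these 13772 genes was -0.0016, with 49.7% of genes above 0. Without VBA- pool 3 the numbers were 1095 and 870 (7.95% and 6.32%), and without VBA+ pool 4 they were 768 and 606 (5.58% and 4.40%). Without VBA- pool 1 the number of genes below was 471 (3.42%), and without VBA- pool 4 it was 453 (3.29%). Counts of list members given below without a pool stand beside these shares. Calls also depended on the libraries used. Without VBA- pool 1, 2 genes passed, cyp2aa9 and si:dkey-31g6.6. Without any other single library 0 genes passed. When the spread was estimated from all 16 libraries together, 10 passed, among them cyp2aa9, si:dkey-31g6.6, zgc:112964 and PKP1 with higher and hsp90aa1.1, FAM13B and PSME4 with lower levels in VBA- pools. That fit takes 1 spread for all groups. The median SD of a gene was 0.311 in VBA- with cortisol and 0.154 to 0.195 in the other groups. Its p-values for the cortisol comparison therefore tend to be too small.

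**Figure D1:**
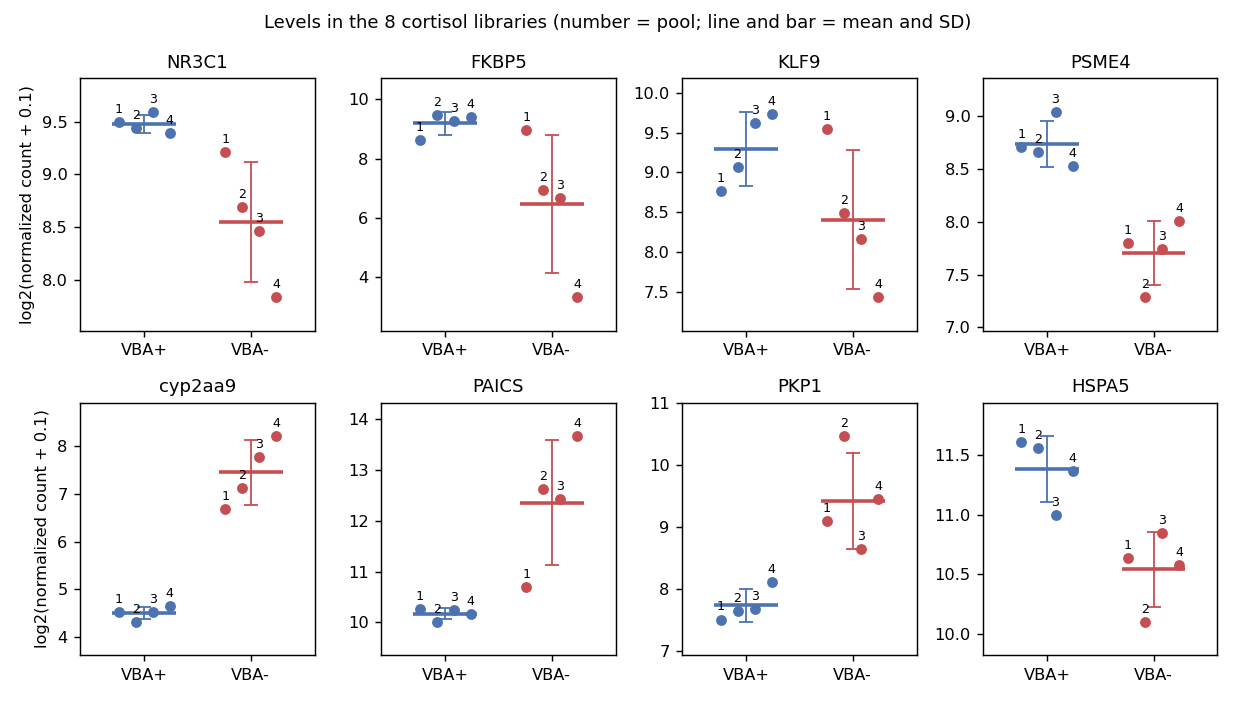
Levels of 8 genes in the 8 cortisol libraries, as log2(normalized count + 0.1). Each point is a pool with its number, and lines and bars are the mean and SD of 4 pools. NR3C1 and PSME4 lay lower in all VBA- pools, FKBP5 and KLF9 overlapped, with VBA- pool 1 in the VBA+ range, and cyp2aa9 and PAICS lay higher in all VBA- pools.

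The GR targets were examined next. KLF9, a zinc finger transcription factor and direct GR target, stood at 8.76, 9.07, 9.63 and 9.74 in the VBA+ pools and at 9.54, 8.49, 8.16 and 7.44 in the VBA- pools. Pools 2, 3 and 4 were below the VBA+ range and pool 1 was within it. The difference was -0.89 ± 0.41. It was -1.27 without VBA- pool 1, -0.57 without VBA- pool 4 and 0.10 with pools 1 and 2 of each genotype alone. For PSME4 (ENSDARG00000087911), a copy of the gene for the proteasome activator PA200, the VBA+ pools gave 8.71, 8.66, 9.04 and 8.52 and the VBA- pools 7.80, 7.29, 7.74 and 8.01. Its groups were clearly apart, pool 1 included, with a difference of -1.02 ± 0.18 and an adjusted p of 0.421 in limma. The other PSME4 copy (ENSDARG00000018742) differed by -0.45 ± 0.21 and its groups overlapped. PER1 (ENSDARG00000056885), a clock repressor with a known glucocorticoid response element in mammals, stood at 8.75, 8.95, 8.96 and 8.85 in the VBA+ pools and at 8.58, 7.73, 8.50 and 8.43 in the VBA- pools. All VBA- pools were lower, pool 2 by the widest margin, with a difference of -0.57 ± 0.19, or -0.38 without pool 2. The other PER1 copy (ENSDARG00000012499) differed by -0.07 ± 0.12.

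Over a list of 34 GR target genes, 29 had a lower mean in VBA- pools and 5 a higher mean, with a median difference of -0.38 beside -0.0016 over all genes. By pool the median of this list was -0.27, -0.49, -0.21 and -0.44 relative to the VBA+ mean. Groups did not overlap for 7 members, 5 below and 2 above, beside 2.09% and 2.64% of all genes, the shares against which such counts in every list are to be read. Among all 37 tested genes of the list, an unadjusted p under 0.05 was reached by 10 below and 2 above, beside 3.07% and 4.78%. Without VBA- pool 1, 12 of the 34 lay below without overlap, beside 3.42% of all genes. Without VBA- pool 2, 3 or 4 the numbers were 5, 6 and 5, beside 2.44%, 6.32% and 3.29%. Pool 1 was singled out by the GR target FKBP5, so that the rise without it is not separate support. The muscle ubiquitin ligase FBXO32 (atrogin-1) differed by -0.90 ± 0.39 with overlapping groups. PDK4, which shuts pyruvate dehydrogenase, stood at 9.30, 9.28, 8.91 and 8.88 in the VBA+ pools and at 8.25, 7.74, 8.79 and 8.67 in the VBA- pools. Its VBA- pools were all lower, pools 1 and 2 more so than pools 3 and 4, with a difference of -0.73 ± 0.23. PFKFB4 (ENSDARG00000029075), an enzyme that sets the level of an activator of glycolysis, was below in all VBA- pools, with a difference of -0.62 ± 0.19. The exceptions that lay above were anxa1c (1.42 ± 0.33), an annexin, and zbtb16b (0.74 ± 0.14), a zinc finger transcription factor.

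Among 13 genes of the GR and its partners, FKBP5 included, 10 had a lower mean and 2, NR3C1 and hsp90aa1.1, lay below without overlap. The Hsp90 gene hsp90aa1.1, whose product folds myosin in zebrafish muscle, stood at 10.98, 10.82, 10.47 and 10.83 in the VBA+ pools and at 10.24, 9.95, 10.21 and 9.71 in the VBA- pools. The groups were apart and the VBA- pools did not split by number, with a difference of -0.75 ± 0.16. NR3C2, the mineralocorticoid receptor, differed by 0.03 ± 0.23 and its groups overlapped. HSP90AB1, the constitutive cytosolic Hsp90, differed by -0.27 ± 0.31, and a PTGES3 copy (ENSDARG00000089626), encoding the Hsp90 co-chaperone p23, by 0.08 ± 0.11.

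Chaperones outside the receptor complex lay in the same direction. Of 27 heat shock proteins and chaperones, 22 had a lower mean in VBA- pools, 7 lay below without overlap and 0 above, and the median difference was -0.36. By pool the median of the list was -0.33, -0.36, -0.26 and -0.40 relative to the VBA+ mean. All 4 pools were thus displaced to a similar extent. HSPA5, the chaperone BiP of the endoplasmic reticulum, stood at 11.61, 11.56, 10.996 and 11.37 in the VBA+ pools and at 10.64, 10.10, 10.85 and 10.58 in the VBA- pools. The VBA- pools were lower without overlap, with a difference of -0.84 ± 0.19. The inducible Hsp70 gene hsp70.3 differed by -0.89 ± 0.31. Leaving out any 1 library gave 7 to 9 members below and at most 1 above.

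The gene with the smallest p was cyp2aa9, a member of the cytochrome P450 family 2, at 4.53, 4.33, 4.53 and 4.65 in the VBA+ pools and 6.69, 7.11, 7.77 and 8.20 in the VBA- pools. Every VBA- pool was well above the VBA+ pools, with a difference of 2.93 ± 0.31 and an adjusted p of 0.11 in limma. Without VBA- pool 1 the difference was 3.18 and the adjusted p 0.0202 in limma. Without VBA- pool 2, 3 or 4 the adjusted p in limma was 0.22, 0.15 and 0.17. Pool 1 was singled out after the values were seen, so that the result without it is not separate support. The related gene cyp2aa8 stood at 7.52, 7.82, 8.31 and 7.24 in the VBA+ pools and at 8.36, 9.003, 10.23 and 10.54 in the VBA- pools. All VBA- pools were higher, VBA- pool 1 only just, by 1.81 ± 0.46. Of 9 cyp2aa genes measured, a group singled out after the values were seen, 8 had a higher mean in VBA- pools and 5 lay above without overlap, 3 of them (cyp2aa2, cyp2aa3 and cyp2aa11) with means under the limit of 75. How reads were shared among these similar genes is uncertain, and their differences may not be independent. Over all P450 genes of drug metabolism there was no common direction: 14 of 28 had a higher and 14 a lower mean, 2 lay above and 1 below without overlap, and the median was 0.0012. Without VBA- pool 3 these were 5 above and 4 below.

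Enzymes of purine synthesis and 1 of folate metabolism were among the genes with the largest differences. PAICS, which joins 2 steps of purine ring synthesis, stood at 10.26, 10.02, 10.25 and 10.16 in the VBA+ pools and at 10.70, 12.64, 12.43 and 13.67 in the VBA- pools. VBA- pool 1 was slightly above the VBA+ pools, and the other pools were far above them. The difference was 2.18 ± 0.51, and limma gave an adjusted p of 0.489. These values were 2.74 and, adjusted in limma, 0.0507 without VBA- pool 1. Without VBA- pool 2, 3 or 4 the adjusted p in limma was 0.85, 0.21 and 0.41. MTHFD1L, a mitochondrial enzyme that releases formate for purine synthesis, stood at 6.36, 6.25, 5.81 and 6.96 in the VBA+ pools and at 7.60, 8.28, 9.14 and 9.66 in the VBA- pools. All VBA- pools were higher, by 2.33 ± 0.43 on average, pool 4 the most. It was the single one of 10 folate enzymes, a list put together after the values were seen, that lay above without overlap. In that list 0 lay below, 5 had a higher and 5 a lower mean, and the median was -0.03. Without VBA- pool 2 the number above was 3. PAICS also led to a list of 13 genes of purine synthesis, put together after the values were seen, of which 3 lay above (PAICS, PPAT and ATIC) and 2 below (ADSS1 and ADSS2). PPAT, the committed step of the pathway, stood at 8.01, 7.84, 7.95 and 8.06 in the VBA+ pools and at 8.42, 8.58, 8.67 and 8.88 in the VBA- pools. Its VBA- pools were close together and all higher, by 0.67 ± 0.13. ATIC, which closes the ring, was higher by 0.81 ± 0.18. ADSS1, which leads from the ring to AMP in muscle, stood at 11.33, 11.40, 11.53 and 11.45 in the VBA+ pools and at 10.89, 10.54, 11.16 and 10.62 in the VBA- pools. It was lower in all VBA- pools, with a difference of -0.63 ± 0.14. AMPD1, the muscle enzyme that deaminates AMP, was lower as well, at 13.86, 13.56, 14.04 and 13.56 in the VBA- pools against 14.52, 14.31, 15.54 and 15.54 in the VBA+ pools. The AMPD1 groups were apart, with a difference of -1.22 ± 0.29.

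Glycogen metabolism was represented among the genes with the largest differences below 0. PHKG1 (ENSDARG00000030604), the catalytic subunit of muscle phosphorylase kinase, stood at 7.06, 6.601, 6.32 and 7.07 in the VBA+ pools and at 5.91, 5.09, 5.68 and 5.396 in the VBA- pools. Its groups were apart, with a difference of -1.24 ± 0.24. The other PHKG1 copy (ENSDARG00000069498) differed by -0.35 ± 0.34 and its groups overlapped. Of 21 glycogen genes, a list also made after the values were seen, 4 lay below without overlap and 0 above. The list median was -0.24. PHKG1 (ENSDARG00000030604), PHKB (-0.33 ± 0.14) and phka1a (-0.14 ± 0.11) were among the 4, and the phka1a groups were only just apart. By pool the medians of the glycogen list were -0.39, -0.32, 0.05 and -0.12, and in vehicle the median difference was 0.02. Without VBA- pool 3 the number below was 7. In a list of 30 genes of gluconeogenesis and amino acid breakdown, 24 had a lower mean and 3 lay below without overlap. The pool medians of this list were -0.31, -0.54, -0.17 and -0.03, and the median difference was -0.24 in cortisol and 0.09 in vehicle. The summed liver and muscle levels, given below, also differed among the VBA- pools, and their part in both lists was not tested. One was a liver-type glutaminase, GLS2 (ENSDARG00000069095), at 8.48, 8.44, 8.06 and 8.35 in the VBA+ pools and 7.19, 6.69, 7.95 and 6.86 in the VBA- pools. VBA- pool 3 was near the VBA+ pools and the others were clearly lower, with a difference of -1.16 ± 0.26. AGXT (ENSDARG00000018478), which moves the amino group of alanine to glyoxylate, differed by -0.94 ± 0.26. Of 28 glycolytic genes 21 had a lower mean and 1 lay below without overlap. Without VBA- pool 1 this number was 4, without VBA- pool 3 it was 5, and without VBA+ pool 4 it was 4.

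Skin genes lay higher in the VBA- pools. In whole larvae, more or fewer cells of a type cannot be told apart from more or less RNA per cell, here and for every tissue list below. Of 38 epidermal keratin and barrier genes, 33 had a higher mean in VBA- pools, and 9 lay above without overlap and 0 below. Among all 40 tested genes of the list, 18 had an unadjusted p under 0.05, all higher, beside 4.78% of all tested genes. Over the 38 genes the median difference was 0.49, and by pool it was 0.76, 0.90, 0.12 and 0.34, so that pools 1 and 2 held most of it. Without VBA- pool 3 the number above was 18. The summed level of the epidermal list was 18.69 to 19.16 in the VBA+ pools and 19.09 to 19.75 in the VBA- pools, where pool 3 alone was within the VBA+ range, and 0 members were undetected. PKP1, a desmosome plaque protein, stood at 7.51, 7.64, 7.68 and 8.11 in the VBA+ pools and at 9.09, 10.46, 8.65 and 9.46 in the VBA- pools. The groups were apart, with the highest value in pool 2 and the lowest in pool 3, and the difference was 1.68 ± 0.34. The keratin gene cyt1l was at 14.31, 13.86, 14.84 and 14.84 in the VBA+ pools and at 15.21, 17.51, 16.13 and 16.13 in the VBA- pools, close to the top of the scale. All its VBA- pools were higher, pool 2 at the topmost step, by 1.78 ± 0.44. ANXA1, which in mammals mediates anti-inflammatory effects of glucocorticoids, stood at 11.95, 12.07, 12.64 and 12.87 in the VBA+ pools and at 14.31, 15.54, 12.73 and 13.15 in the VBA- pools. Pool 3 was within the VBA+ range, and the difference of 1.56 ± 0.55 came mostly from pools 1 and 2. Of 13 melanophore genes, 12 had a higher mean (median 0.30) and 0 lay above without overlap.

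Digestive enzymes of the exocrine pancreas lay lower. Of 20 genes, 19 had a lower mean and 3 lay below without overlap, with a median of -0.79. Among all 25 tested genes of the list, 12 had an unadjusted p under 0.05, all lower, beside 3.07% of all tested genes. By pool the medians of the 20 genes were -0.72, -1.22, -0.09 and -1.13, so that pool 3 was near the VBA+ pools and the others were not. Without VBA- pool 3, 12 members lay below, and without VBA- pool 1, 6. Their summed level was 16.25 to 16.77 in the VBA+ pools and 15.42 to 16.51 in the VBA- pools, with 0 members undetected. The chymotrypsinogen gene ctrb.2 stood at 11.69, 11.56, 11.26 and 11.42 in the VBA+ pools and at 10.64, 9.58, 10.93 and 10.09 in the VBA- pools. All VBA- pools were lower, the difference being -1.17 ± 0.27. For ctrl, a chymotrypsin-like protease, the VBA+ pools gave 11.99, 11.75, 10.91 and 11.19 and the VBA- pools 9.37, 8.09, 11.58 and 9.67. VBA- pool 3 was within the VBA+ range and pools 1, 2 and 4 were below it.

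Liver genes lay in both directions. Of 47 plasma and acute-phase protein genes, 36 had a lower mean, 4 lay below and 3 above without overlap, and the median was -0.31 in cortisol against 0.62 in vehicle. By pool the cortisol medians were -0.60, -1.04, 0.28 and 0.26. Relative to the VBA+ pools the first pair was thus lower and pools 3 and 4 higher. The summed liver level was 17.79 to 17.98 in the VBA+ pools, and in VBA- pools 1 to 4 it was 17.62, 17.26, 18.33 and 18.13, which put 2 pools below and 2 above the whole VBA+ range. The complement gene c3b.2 stood at 10.47, 10.62, 10.10 and 9.88 in the VBA+ pools and at 8.09, 7.34, 10.58 and 10.41 in the VBA- pools. Only pools 1 and 2 were below the VBA+ range. The apolipoprotein gene apoa1a, at 13.09, 12.73, 12.43 and 12.37 and 12.64, 12.73, 14.52 and 14.84 respectively, was within the VBA+ range in pools 1 and 2 and above it in pools 3 and 4. Some other liver genes did not split in this way. The iron hormone hepcidin gene, hamp, stood at 7.56, 7.29, 8.25 and 7.82 in the VBA+ pools and at 7.05, 6.21, 6.43 and 6.25 in the VBA- pools. All its VBA- pools were lower, the difference being -1.25 ± 0.25. The liver peptide gene leap2, in contrast, was at 6.21, 6.002, 5.43 and 5.68 in the VBA+ pools and 7.56, 7.12, 6.66 and 7.56 in the VBA- pools. It was higher in all VBA- pools, by 1.39 ± 0.25. LIPC, hepatic lipase, stood at 7.31, 7.20, 7.42 and 7.25 in the VBA+ pools and at 6.72, 5.21, 6.49 and 5.396 in the VBA- pools. It was below in every VBA- pool, furthest in pools 2 and 4, with a difference of -1.34 ± 0.33.

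Clock genes and immediate early genes showed smaller differences. Of 28 clock genes, 19 had a lower mean, 4 lay below and 2 above without overlap (beside 2.09% and 2.64% of all genes), and the median was -0.06. The nuclear receptor gene nr1d2a, a Rev-erb repressor of the clock, stood at 10.45, 10.49, 10.57 and 10.70 in the VBA+ pools and at 10.29, 9.68, 9.80 and 9.19 in the VBA- pools. Its groups were apart, pool 1 being nearest to the VBA+ pools and pool 4 furthest, with a difference of -0.81 ± 0.21. Of 13 immediate early genes, which neurons and other cells switch on within minutes of a stimulus, 1 lay apart between groups. This was egr4, at 6.97, 7.10, 6.85 and 7.29 in the VBA+ pools and 7.51, 7.47, 7.78 and 7.51 in the VBA- pools. The VBA- pools were all higher, by 0.52 ± 0.14. NPAS4 differed by -0.33 ± 0.26 and egr1 by -0.06 ± 0.23, with overlapping groups in each. Of 6 stress axis genes, 0 lay apart, and the median was -0.15.

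The effect of genotype in cortisol was then set beside that in vehicle, where the 8 libraries are different ones and no library is shared. In vehicle 51 genes passed the call limits (0.235% of 21686), 37 higher and 14 lower in VBA- larvae. Of these, 48 had a mean on the same side in cortisol, 35 of 37 higher and 13 of 14 lower, where 49.7% of all genes were above 0. Groups in cortisol were apart in the same direction for 18 of the 37 (48.6%, beside 2.64% of all genes) and 4 of the 14 (28.6%, beside 2.09%), and in the opposite direction for 0. The sizes differed: for the 37 the median was 0.85 in vehicle and 0.73 in cortisol, and for the 14 it was -0.81 in vehicle and -0.33 in cortisol. These genes were chosen by their vehicle differences, a choice that by itself favours smaller sizes in cortisol. In vehicle, same-numbered libraries of the 2 genotypes deviated together, and with replicate number as a block 195 genes passed, of which 136 had the same direction in cortisol. Of those genes, 42 of 155 higher and 11 of 40 lower were apart in the same direction in cortisol. Among the 13772 genes, differences in the 2 treatments had a Pearson r of 0.32 and a Spearman rho of 0.25, given as a description since genes are not independent. Without overlap in vehicle, 699 of the 13772 genes lay above and 620 below. Of 364 genes that lay above without overlap in cortisol, 127 (34.9%) did so in vehicle too, which was 18.2% of the 699. Of 288 below in cortisol, 68 (23.6%) did so in vehicle, which was 10.97% of the 620.

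**Figure D2:**
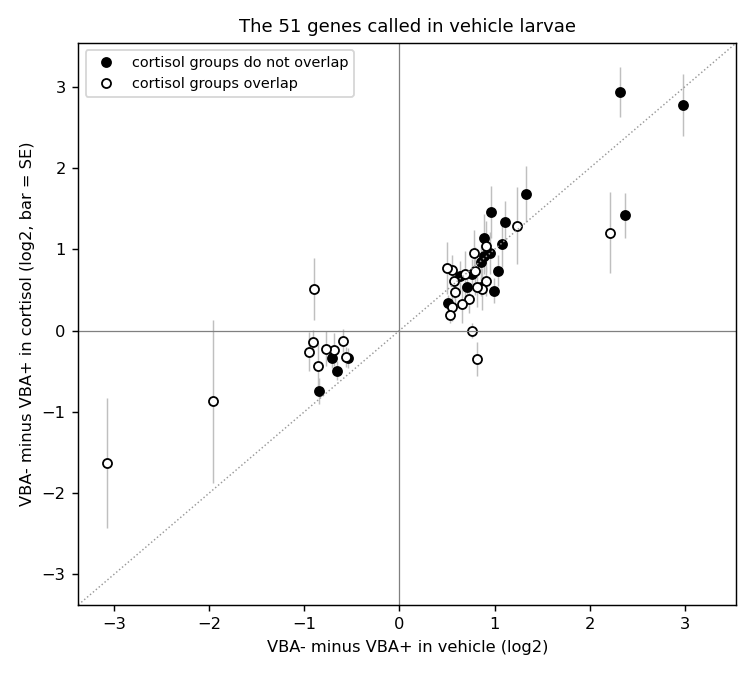
Differences between VBA- and VBA+ larvae in vehicle (x axis) and in cortisol (y axis, bars are SE), in log2 units, for the 51 genes called in vehicle. Filled points have groups that do not overlap in cortisol, the dotted line marks equality, and 48 points lie in the quadrants of equal direction.

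Genes with a large vehicle difference that recurred in cortisol included PAICS (2.16 in vehicle, 2.18 in cortisol), cyp2aa9 (2.31 and 2.93), PKP1 (1.32 and 1.68) and zgc:112964 (2.99 and 2.77). PAICS did not pass the call limits in vehicle, whereas cyp2aa9, PKP1 and zgc:112964 did. The uncharacterized gene zgc:112964 stood at 6.05, 6.05, 6.72 and 6.86 in the VBA+ pools with cortisol and at 8.57, 10.27, 8.59 and 9.32 in the VBA- pools. All VBA- pools were far above. NOS1, neuronal nitric oxide synthase, stood at 6.76, 6.39, 6.05 and 4.91 in the VBA+ pools and at 5.98, 8.04, 7.32 and 7.58 in the VBA- pools. Here VBA- pool 1 was within the VBA+ range and pools 2 to 4 above it, with a difference of 1.204 ± 0.50 in cortisol and 2.21 in vehicle. The cortisol difference was 1.62 without VBA- pool 1, and the groups were then apart. Of the genes called lower in vehicle, MATN3 (ENSDARG00000069265), a cartilage matrix protein, differed by -0.95 in vehicle and -0.26 ± 0.24 in cortisol. TNNT3 (ENSDARG00000068457), a fast muscle troponin, differed by -0.91 and -0.15 ± 0.15. Its values sat on shared steps, at 16.89 in all VBA+ vehicle pools and 16.13 or 15.54 in the VBA- vehicle pools. With cortisol all pools but VBA- pool 3 were at 16.13, so that both TNNT3 differences are distances between steps. The galectin gene lgals4 was the single gene of the 14 with a mean on the other side, 0.51 ± 0.38 in cortisol against -0.89 in vehicle. Its cortisol difference was 0.18 without VBA- pool 1 and -0.32 with pools 3 and 4 alone. Of the 37 genes called higher, MAN1C1 had a mean on the other side, -0.35 ± 0.21 in cortisol against 0.81 in vehicle. The actin gene actb2, also among the 37, was tied between genotypes in cortisol. The difference between the genotype effects in cortisol and vehicle, fitted as an interaction on all 16 libraries, passed in 1 gene, the actin gene actb2 (0.00461% of 21686; 1138 genes at an unadjusted p under 0.05). With replicate number as a block it passed in 0 genes (smallest adjusted p 0.255 in limma), and it also passed in 0 with a pseudocount of 5, without a filter and without most single libraries. For actb2 all 8 cortisol libraries and the VBA- vehicle libraries shared 1 step, 16.89, and the VBA+ vehicle libraries the next, 16.13.

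The VBA- pools with cortisol differed widely among themselves, more than any other group. The median SD of a gene over 4 pools was 0.311 in VBA- with cortisol, 0.180 in VBA+ with cortisol, 0.195 in VBA- with vehicle and 0.154 in VBA+ with vehicle. An SD of at least 1 was found for 459, 31, 51 and 33 genes, in the same order. The SD was larger in VBA- than in VBA+ with cortisol for 11162 genes (81.0%). A limma fit to the deviations from the group mean found a larger spread in VBA- for 2127 genes (15.4% of 13772) and in VBA+ for 62 (0.45%). These p-values are approximate and tend to be too small, since the 4 deviations of a group share their mean. The wide spread was also known beforehand, so the calls describe it, here and in the lists below, and are no separate support. Without VBA+ pool 1, 2 or 3 this fit gave 0 genes for VBA-, with 4100, 3912 and 3563 at an unadjusted p under 0.05, without VBA+ pool 4 it gave 1832, and without 1 of the VBA- pools 292 to 613. For a single value per library, the root mean square distance to the mean of the other 3 pools of its group, the VBA- pools gave 0.497, 0.586, 0.582 and 0.503 and the VBA+ pools 0.292, 0.274, 0.248 and 0.339. The VBA- distances were all larger (0.542 ± 0.0486 against 0.288 ± 0.0382, SD, n = 4 each). They are a description with no test, since the distances of a group share its libraries and the wide spread was known beforehand.

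**Figure D3:**
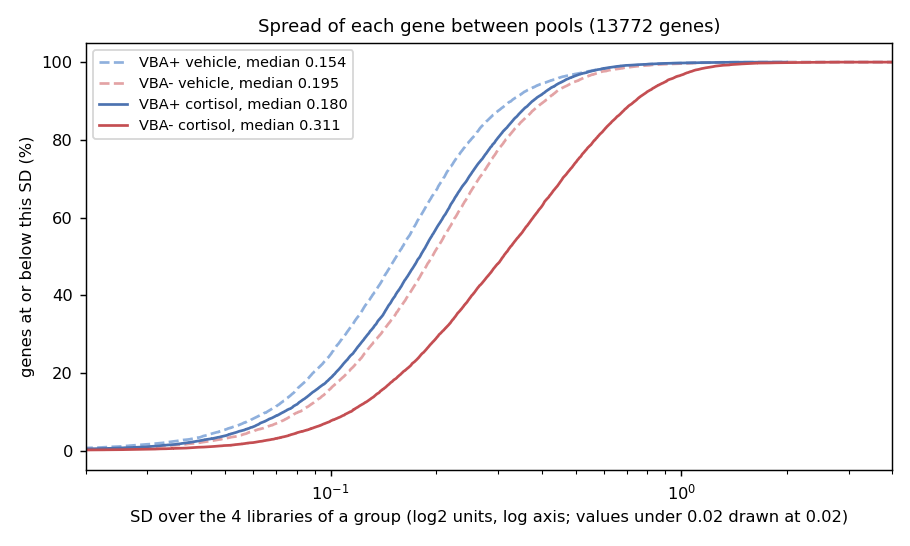
Cumulative share of 13772 genes (y axis, percent) by the SD of their log2 level over the 4 pools of a group (x axis, log scale). The VBA- cortisol curve lies furthest to the right, with a median SD of 0.311 against 0.180 for VBA+ cortisol, 0.195 for VBA- vehicle and 0.154 for VBA+ vehicle.

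The VBA- pools stood in pairs by their numbers. Pools 1 and 2 were 0.313 apart (root mean square over genes) and pools 3 and 4 were 0.316 apart, whereas distances between the pairs were 0.727 to 0.856. From the VBA+ mean, pools 1 and 2 stood at 0.633 and 0.748 and pools 3 and 4 at 0.278 and 0.379. Pool 3 was nearer to VBA+ pools 1 and 2 (0.278 and 0.277) than VBA+ pools 3 and 4 were (0.356 to 0.445). Genes at least 1 unit above or below the whole VBA+ range numbered 106 and 312 in pool 1, 332 and 652 in pool 2, 12 and 33 in pool 3, and 33 and 89 in pool 4. Both values of VBA- pools 1 and 2 lay above both values of pools 3 and 4 for 5541 genes, and below for 5170. The VBA+ pools were divided by the same numbers, with pools 1 and 2 above for 3913 genes and below for 4806. The sense was mostly the reverse of that in VBA-. Deviations from the group mean in VBA- pools 1 and 2 correlated at -0.63 to -0.55 with those of VBA+ pools 1 and 2. With VBA+ pools 3 and 4 they correlated at 0.40 to 0.71. The other ways of pairing the pools gave 500 to 899 genes a side in VBA- and 1004 to 1210 in VBA+. The labels and the methods name no batch for these libraries, and the part of collection or preparation in this division was not tested. With pools 1 and 2 of each genotype alone, 6435 genes passed the call limits, and with pools 3 and 4 alone, 63, each from 2 pools against 2. In both comparisons the genotypes stood on opposite sides of the division, so that it cannot be told apart from genotype there.

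The division was wide in genes of the nervous system. Of 40 synaptic genes, 39 had a lower mean in VBA- pools, but 0 lay apart between groups, and by pool the medians were -1.19, -1.24, 0.27 and -0.04. In 38 of them pools 1 and 2 were both below pools 3 and 4, and 16 were called for a larger spread in VBA-. Of 16 neuronal marker genes 15 behaved so, with pool medians of -1.43, -1.56, 0.11 and -0.10 and 10 spread calls. Over all 13772 genes, 15.4% were called for a larger spread in VBA-. Pools 1 and 2 were both below pools 3 and 4 in 5170 of the 13772 and both above in 5541. Such counts for the lists here and below are to be read beside these. The summed neuronal level was 14.37 to 14.80 in the VBA+ pools, and 13.71, 13.65, 14.78 and 14.48 in VBA- pools 1 to 4, with 0 members undetected. The neuronal RNA-binding protein gene ELAVL3 stood at 11.47, 11.26, 10.98 and 10.61 in the VBA+ pools and at 9.29, 8.89, 11.37 and 10.88 in the VBA- pools. Pools 1 and 2 were far below, and pools 3 and 4 were within the VBA+ range. The synaptic vesicle gene syn1 stood at 9.57, 9.46, 9.03 and 8.44 in the VBA+ pools and at 6.43, 6.86, 9.47 and 9.0 in the VBA- pools, which is the same arrangement. Within the VBA+ group both genes were higher in pools 1 and 2 than in pools 3 and 4, the reverse of the VBA- order.

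Muscle genes were split in the same sense. Of 45 sarcomere genes, 20 were called for a larger spread in VBA-, and pool medians were -0.35, -0.45, 0.02 and 0. Some abundant muscle genes sat on shared steps, where tied VBA+ pools give an SD of 0, which can raise the number called. TNNT3 (ENSDARG00000068457) was called with VBA- pool 3 alone off the shared step (adjusted p 0.0436 in the limma fit of spread). The fast muscle calcium pump gene atp2a1 was at the topmost step, 17.51, in all VBA+ pools and at 15.54, 15.21, 17.51 and 17.51 in the VBA- pools. The myosin heavy chain gene myhz1.3 stood at 16.89, 16.89, 16.13 and 16.13 in the VBA+ pools and at 13.48, 13.29, 16.89 and 16.13 in the VBA- pools. In both genes pools 1 and 2 alone were low. The summed sarcomere level was 20.80 to 20.95 in the VBA+ pools, and 20.57, 20.47, 20.92 and 20.87 in VBA- pools 1 to 4. Basement membrane and collagen genes followed, with pool medians of -0.39, -0.45, 0.18 and 0.12 over 69 genes. Liver genes had 26 spread calls of 47, a median SD of 0.627 in VBA- against 0.183 in VBA+, and the pool medians given above.

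Genes of energy and protein production were divided the other way. Of 87 oxidative phosphorylation genes, 76 had both pools 1 and 2 above pools 3 and 4, with pool medians of 0.39, 0.41, -0.14 and -0.13. The ATP synthase subunit gene atp5mea stood at 8.59, 8.57, 9.17 and 9.10 in the VBA+ pools and at 10.29, 10.31, 8.48 and 8.58 in the VBA- pools. Here pools 1 and 2 were above the VBA+ range and pools 3 and 4 at or just under its lower end. Of 81 cytosolic ribosomal protein genes, 57 showed the same division, with pool medians of 0.35, 0.32, -0.08 and -0.04. That division was seen in 5541 of all 13772 genes. Without overlap, 1 oxidative phosphorylation gene lay above and 1 below, and 1 ribosomal protein gene above and 0 below, beside 2.64% above and 2.09% below of all genes. In 14 of 15 inflammation and neutrophil genes pools 1 and 2 were also the higher ones, with medians of 0.27, 0.13, -0.58 and -0.35. The immunometabolic gene irg1l stood at 6.76, 6.25, 6.39 and 6.88 in the VBA+ pools and at 6.23, 6.31, 4.18 and 3.02 in the VBA- pools, so that pools 3 and 4 were far below and pool 2 within the VBA+ range, with pool 1 slightly under it. The neuronal, liver, muscle and skin levels of each pool move with these values, and their part in them was not tested.

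**Figure D4:**
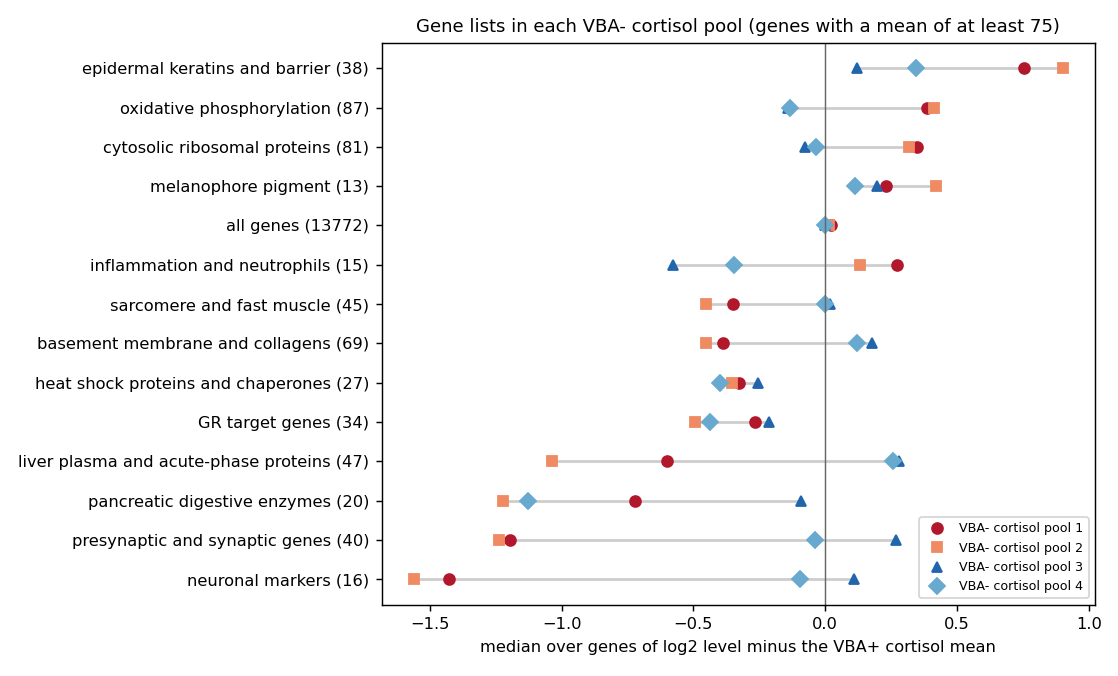
Median over the genes of a list of the log2 level in each VBA- cortisol pool minus the VBA+ cortisol mean (x axis), with the number of genes in brackets. Pools 1 and 2 lay low for neuronal (-1.43 and -1.56) and liver genes (-0.60 and -1.04) and high for epidermal genes (0.76 and 0.90), whereas the heat shock median was below 0 in all 4 pools.

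Lens genes went against the general spread. Over 45 lens crystallin and fibre genes the median SD was 0.245 in VBA- and 0.428 in VBA+, and 9 were called for a larger spread in VBA+ against 3 in VBA-. Over all genes such calls were 0.45% for VBA+ and 15.4% for VBA-. BFSP1, a beaded filament protein of lens fibres, stood at 9.29, 9.29, 6.80 and 5.76 in the VBA+ pools and at 5.09, 4.71, 8.23 and 8.01 in the VBA- pools. Both groups ranged widely, with VBA+ pools 1 and 2 and VBA- pools 3 and 4 at the high end. FBLN1, an extracellular matrix fibulin, was a case of a wide VBA+ group, at 8.16, 8.28, 6.73 and 7.03 against 7.76, 7.77, 7.86 and 7.67 in the VBA- pools. VBA+ pools 1 and 2 stood above the close set of VBA- pools and pools 3 and 4 below it.

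Some of the genes with pools 1 and 2 above pools 3 and 4 ranked the VBA- pools as NR3C1, FKBP5 and KLF9 did, with pool 1 highest, then 2, 3 and 4. That order was seen for 923 of 13772 genes (6.70%), and for 54 of the 489 genes whose VBA- cortisol range was at least 2 units (11.04%). It was seen for 13 of the 20 genes with the widest range, chosen after the values were seen, and 15 of these 20 had pool 4 lowest. The 923 genes are part of the 5541 with pools 1 and 2 above pools 3 and 4. FKBP5 and KLF9, which define the order, are among the 54, and FKBP5 is among the 13. In 16 of the 20, pool 1 was not below the VBA+ pools. RHCG (ENSDARG00000007080), an ammonium transporter, stood at 10.27, 10.47, 10.85 and 11.17 in the VBA+ pools and at 11.39, 10.50, 9.34 and 5.65 in the VBA- pools. Pool 1 was the highest of all 8 libraries, pool 2 was within the VBA+ range, and pools 3 and 4 were below it, the last far below. SLC14A2, a urea transporter, stood at 7.44, 7.62, 8.18 and 8.49 in the VBA+ pools and at 8.50, 7.30, 6.15 and 3.19 in the VBA- pools. Again pool 1 was the highest library, while pool 2 was just under the VBA+ range and pools 3 and 4 well under it. For urgcp the values were 8.93, 8.61, 9.28 and 9.55 in the VBA+ pools and 9.65, 7.46, 6.62 and 3.597 in the VBA- pools, which put pools 2 to 4 below the VBA+ range. In VBA- vehicle pools 1 to 4, RHCG stood at 10.35, 9.79, 10.54 and 8.71. SLC14A2 stood there at 6.65, 7.21, 7.34 and 5.53, and urgcp at 8.16, 7.64, 8.38 and 7.001. Pool 4 was thus lowest in VBA- vehicle too, over smaller ranges and with pool 3 rather than pool 1 highest. Among the 15 genes with pool 4 lowest in cortisol, ENSDARG00000101990 alone did not have it lowest in VBA- vehicle. Ionocyte genes as a list had a median of 0.06 over 28 genes, with 0 apart between groups. The widest range of all, 11.3 units, was that of the actin gene actc1c. It was at -3.32, which is a count of 0, in VBA- pools 1, 2 and 3 and at 7.98 in pool 4, and it ranged from -3.32 to 0.14 in the VBA+ cortisol pools. In the VBA- vehicle pools actc1c stood at 9.496, 7.52, 2.04 and -3.32, and in the VBA+ vehicle pools at 1.07, 1.07, -3.32 and 8.30, so that it was high in some pools of 3 groups.

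**Figure D5:**
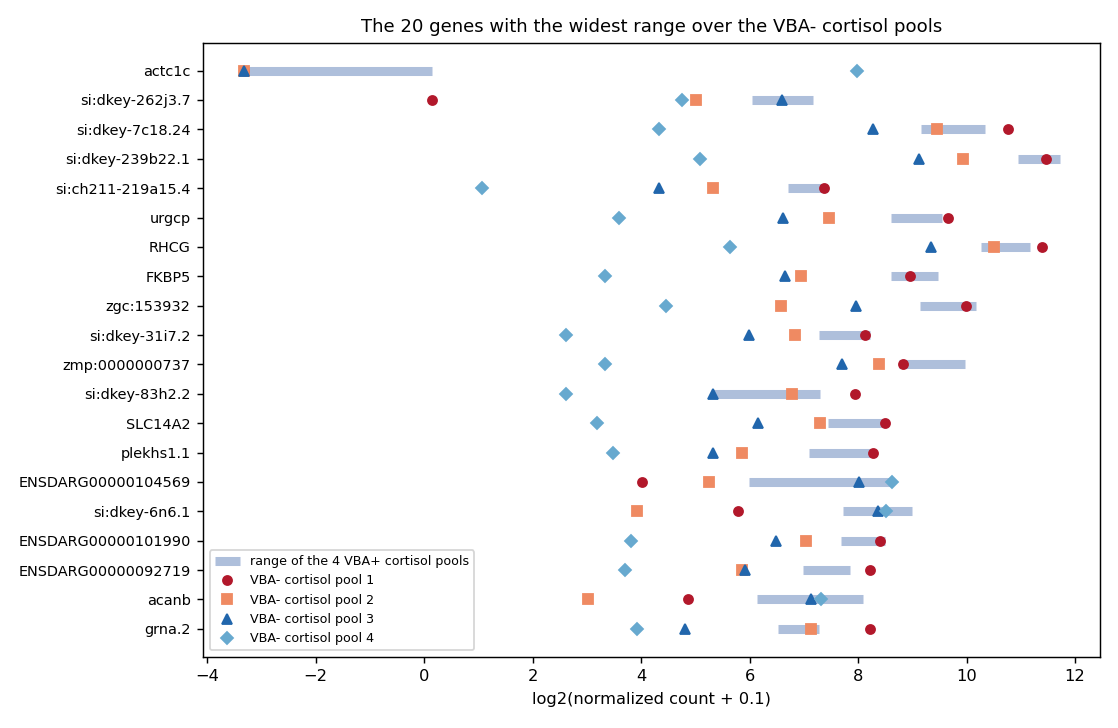
The 20 genes with the widest range over the VBA- cortisol pools, chosen after the values were seen, as log2(normalized count + 0.1) (x axis). Blue bars span the 4 VBA+ cortisol pools and symbols are the VBA- pools. Pool 4 was lowest in 15 of the 20, and pool 1 was not below the VBA+ pools in 16.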

How the data were processed

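Poly(A) RNA of 16 pools of whole larvae was sequenced in paired ends. The authors trimmed reads with Trimmomatic, aligned them with STAR 2.6.1b to GRCz11, estimated gene counts with RSEM 1.3.0 and normalized them with EDASeq for GC content within libraries and then, between libraries, to equal quantiles. Deposited by the authors are log2 values, namely log2 of the normalized count plus 0.1. Every library holds the same set of values (sum 14653434), so depth is unknown and precision is that between pools. Of 22994 gene IDs, 21794 were matched to a symbol in a gene name table, and copies of a gene can share a symbol there.

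The authors tested counts with DESeq2 1.24.0. Since log2 values are not counts, limma 3.58.1 in R 4.3.3 was used (lmFit, eBayes with a trend, Benjamini-Hochberg over genes whose normalized count averaged 5 or more) on the 8 cortisol libraries, with the call limits of the study (mean of at least 75, adjusted p of at most 0.05, absolute log2 difference of at least 0.5, SE under 1). The interaction used all 16 libraries, and spread was fitted in the same way to absolute deviations from group means. The code was tested on simulated data.

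Genes were named by rule: the receptor, its partners and genes the study discusses; among genes with groups that do not overlap, the 10 largest differences each way and the 5 smallest p; the 5 and 3 clearest cases of larger spread in VBA- and VBA+; the 4 largest differences of each list; and 5 genes each way among those called in vehicle. Some genes that the rule names are not reported here. The comparison, lists and tests were chosen with earlier results of these data known. Whether replicate numbers pair libraries was checked by the correlation of deviations from group means: same-numbered vehicle libraries gave 0.212 to 0.309, and a block is given for them, while the cortisol libraries gave negative values. Alternatives were other pseudocounts, filters, variance models and sets of libraries, and each library left out in turn. Plots were made in Python 3.11.15 (matplotlib 3.10.9).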

Additional observations from a re-analysis of the deposited data

Results flagged for a closer look

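Among 154 groups of 4 libraries checked, 1 library stood far from the other 3 in 6, where chance gives such a gap in about 1 in 20 groups. In the VBA- cortisol group, pool 3 was high for egr4 at 7.78, zgc:122979 stood at 7.48 in pool 3, TNNT3 at 15.54 in pool 3 and ENSDARG00000105749 at 2.35 in pool 4. In the VBA+ cortisol group, pool 4 stood apart for si:ch211-240l19.5 at 8.36 and for lgals4 at 7.12. TNNT3 lies in the range of shared steps, where the other 3 pools held the next step.

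The genotype effect differed between cortisol and vehicle for actb2, by -0.76 (adjusted p = 0.0241 for the interaction in limma, all 16 libraries), which is the distance between 2 neighbouring shared steps. With replicate number as a block the smallest adjusted p of any gene was 0.255 in limma, and 0 genes passed. For ERRFI1, a feedback inhibitor of growth factor receptors, the groups were apart in opposite directions. With cortisol the VBA+ pools stood at 8.21, 8.40, 8.18 and 8.18 and the VBA- pools at 7.93, 7.97, 8.07 and 7.73, a difference of -0.32. In vehicle the VBA+ pools stood at 7.56, 7.48, 7.45 and 7.51 and the VBA- pools at 7.69, 7.64, 7.69 and 7.82, a difference of 0.21. The interaction of -0.53 did not pass in limma (adjusted p = 0.726). Of 13772 genes, this was the single one with groups apart in opposite directions in the 2 treatments.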

How the results depend on the processing

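The number of genes called between genotypes in cortisol was 0, and remained 0 with pseudocounts of 1 and 5, without a filter, with genes of a mean of at least 75 alone, without the trend and without a limit on the mean. It was 10 with 1 spread over all 16 libraries, 1 with library weights and 1 with a term for replicates 3 and 4 (cyp2aa9 in both), 6435 with replicates 1 and 2 only, 63 with replicates 3 and 4 only, and 0 to 2 without 1 library. Same-numbered cortisol libraries had correlations of -0.63 to -0.45 in their deviations, so the numbers were not taken as pairs. VBA- 1 and 2 deviated with VBA+ 3 and 4 (0.40 to 0.71) and VBA- 3 and 4 with VBA+ 1 and 2 (0.50 to 0.66), and whether numbers were exchanged was not tested. With a replicate block the count was 0, with 841 genes at an unadjusted p under 0.05 against 1701. Genes above without overlap numbered 411 to 1095 and genes below 336 to 870 without 1 library. Of the genes called in vehicle, 47 to 48 kept their direction without 1 library, and 136 of the 195 called with the replicate block had the same direction. Genes with larger spread in VBA- numbered 3423 with genes of a mean of at least 75 alone, 583 with deviations from the median and 0 to 1832 without 1 library, and those with larger spread in VBA+ numbered 106, 7 and 0 to 21. The share of genes with a larger SD in VBA- was 75.6 to 82.1% without 1 library, and the difference in library distance 0.222 to 0.288. The interaction was called in 0 genes with a pseudocount of 5, 0 without a filter, 0 with a replicate block and 0 to 1 without 1 library.

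Of 76 named genes, 15 took the opposite sign under some alternative. With replicates 1 and 2 only these were NR3C2 (-0.42), KLF9 (0.10), FKBP4 (0.041), si:dkey-83h2.2 (1.29) and apoa1a (-0.23). With replicates 3 and 4 only they were NPAS4 (0.19), egr1 (0.45), ier2b (-0.32), HSP90AB1 (0.46), MATN3 (0.31), lgals4 (-0.32), ier2a (-0.35), CPA1 (0.13), c3b.2 (0.50) and cyp2n13 (0.049). Without 1 library, NR3C2 ranged from -0.14 to 0.17, egr1 from -0.19 to 0.14 and si:dkey-83h2.2 from -1.63 to 0.15. The causes of these changes were not tested. Pools 1 and 2 against 3 and 4 compare 2 libraries with 2. Equal value sets in all libraries leave no measure of depth, and shared steps limit differences among the most abundant genes.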

Other observations

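Other genes were apart between genotypes in cortisol, the last below being a keratin gene of the kind in the epidermal list. PLA2G12B, needed for lipoprotein secretion in zebrafish liver and gut, stood at 10.80, 10.66, 10.45 and 10.78 in the VBA+ pools and at 11.37, 11.50, 11.33 and 11.72 in the VBA- pools. All VBA- pools were higher, by 0.80 ± 0.13 (SE, n = 4 against 4). FAM13B stood at 12.73, 12.87, 12.94 and 12.73 in the VBA+ pools and at 12.04, 11.82, 12.23 and 12.18 in the VBA- pools. Its VBA- pools were all lower, the difference being -0.75 ± 0.12. The uncharacterized gene si:dkey-31g6.6 stood at 6.32, 6.51, 6.43 and 6.43 in the VBA+ pools and at 7.59, 8.35, 8.49 and 9.02 in the VBA- pools. The VBA+ pools were nearly equal and the VBA- pools all well above them, by 1.94 ± 0.26. The keratin gene krt1-19e, at 13.93, 14.52, 14.52 and 14.69 in the VBA+ pools and 16.89, 17.51, 14.84 and 15.21 in the VBA- pools, was higher in all VBA- pools and most in pools 1 and 2.

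The phosphorylase kinase subunit gene phka1b, with a mean normalized count of 57, stood at 6.17, 6.46, 6.74 and 6.29 in the VBA+ pools and at 5.59, 4.18, 4.18 and 2.04 in the VBA- pools. It ranked the VBA- pools nearly as NR3C1 did and was below the VBA+ pools in each, with a difference of -2.42 ± 0.62. Red blood cell genes, 12 in number, had a median of 0.09, with 2 above without overlap, hemgn (0.61 ± 0.15) and hbae1.1 (0.47 ± 0.14). Of 23 cell cycle genes 1 lay below without overlap, 4 without VBA- pool 1 and 5 without VBA- pool 3, and 0 of 22 cartilage and bone genes lay apart. Photoreceptor genes had a lower mean in 33 of 41, with a median of -0.29 in cortisol and -0.36 in vehicle, and without VBA- pool 3 the number below without overlap was 12 rather than 1.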
